A study of Homo sapiens with 6 samples.

Results

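Immunoglobulin-type adhesion molecules are cell surface proteins built from immunoglobulin domains, and 10 of their genes were followed across the series: VCAM1, ICAM1, ICAM2, ICAM3, ALCAM, MCAM, L1CAM, NCAM1, BCAM and CADM1. They were chosen by symbol, as were the related lists below, with earlier results of these data known. All 10 were found once each among the 58395 genes of the deposited table. The samples were 6 RNA-seq libraries of 786-O, an established human renal cell adenocarcinoma line known for its loss of VHL. Of these, 3 are labelled sgPLOD2 and PLOD2 knockout, after the gene of a lysyl hydroxylase that modifies collagen, and 3 are labelled sgControl. All were grown in RPMI-1640 with fetal bovine serum. The labels give neither the guide sequences nor whether a group was a pool or a single clone. Nor do they state that replicates came from separate cultures, and each p-value therefore reflects variation among libraries that could be purely technical.

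These proteins hold cells to other cells or to laminin, either by binding a second copy of themselves or by binding integrins on a partner cell. VCAM1 and the ICAM proteins are best known as docking sites for white blood cells, and VCAM1 and ICAM1 are switched on by inflammatory cytokines through NF-kB. In the kidney, L1CAM is known from the collecting duct and NCAM1 from the progenitors of the nephron.

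Levels are in FPKM (fragment counts scaled to gene length and to the mapped fragments of the library), which can be compared between genes because it is per length. Libraries summed to between 229485 and 268612 FPKM, with 9874 to 10649 genes at 1 FPKM or more. Absolute read depth is unknown. Mitochondrial genes took 6.01% to 6.72% of FPKM in sgPLOD2, against 12.9%, 7.50% and 6.96% in sgControl. PLOD2 itself had 5.98, 10.1 and 6.64 FPKM in sgPLOD2, against 26.8, 25.7 and 21.5 FPKM in sgControl, or 0.307 of the sgControl mean, and its log2 fold change was -1.61 ± 0.18 (SE; limma adjusted p = 0.000509). The groups also differed in HIF1A, a gene singled out after its values were seen. It had 39.1, 38.4 and 35.6 FPKM in sgPLOD2, against 0.311, 0.539 and 0.409 FPKM in sgControl. A difference between the cell populations and an effect of PLOD2 loss cannot be told apart in this design. In such bulk libraries, fewer cells that make a transcript and less transcript per cell cannot be told apart either. All 7 renal carcinoma markers checked reached a mean of 1 FPKM, of which 4 were called lower in sgPLOD2 and none higher, and the epithelial factor PAX8 had 22.6, 22.7 and 26.7 FPKM in sgPLOD2 and 36.3, 24.6 and 23.1 FPKM in sgControl. Of 7 endothelial, 7 leukocyte and 6 pericyte or fibroblast markers the highest single value was 0.499 FPKM, and VWF, CD3E and DCN were listed at 0 throughout. Their summed levels were 0.279 to 0.369, 0.232 to 0.502 and 0.574 to 0.782 FPKM in sgPLOD2, against 0.0494 to 0.149, 0.105 to 0.169 and 0.472 to 0.900 FPKM in sgControl. Of 6 neural and Schwann cell markers TUBB3 alone passed 1 FPKM, and SOX10 was listed at 0. That list summed to 32.5 to 41.5 FPKM in sgPLOD2, against 9.88 to 28.9 FPKM in sgControl. The part of these markers in the members' differences was not tested.

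The family did not move as 1 group. MCAM, VCAM1, ALCAM, L1CAM and BCAM rose, ICAM1 and ICAM3 fell, NCAM1 and CADM1 did not pass the test, and ICAM2 lay below the level needed for it. The test was limma on log2(FPKM + 1) over the 10469 genes whose mean reached 1 FPKM, with Benjamini-Hochberg adjustment over all of them and a threshold of 0.05. Of the 9 members tested, 5 were called higher and 2 lower. Over all genes tested 29.5% were called higher and 23.5% lower, 52.9% in all, so calls were common in this comparison. The share of calls over all genes on the higher side, 55.7% here, depended on the setting. It was 66.8% on the TPM scale, but 49.9% after median-of-ratios scaling or quantile normalization. Taking out chromosome medians gave 48.5%, and taking out a trend on GC content and transcript length gave 48.1%. Requiring 5 FPKM gave 45.2%, whereas no filter gave 58.5%. The remaining alternatives gave 54.6% to 56.5%. MCAM, VCAM1 and ALCAM passed a log2 change of 1, L1CAM fell just short of it, and no member passed it on the lower side. Among all tested genes, 5.03% passed it on the higher side and 3.91% on the lower side. The median log2 fold change of the 9 tested members was 0.51, beside 0.06 for all tested genes. None of the 10 members had overlapping values between sgPLOD2 and sgControl, a pattern shared by 62.7% of all tested genes. For 3 libraries against 3 the exact 2-sided permutation test gave p = 0.1 for each member, the smallest it can give.

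**Figure D1:**
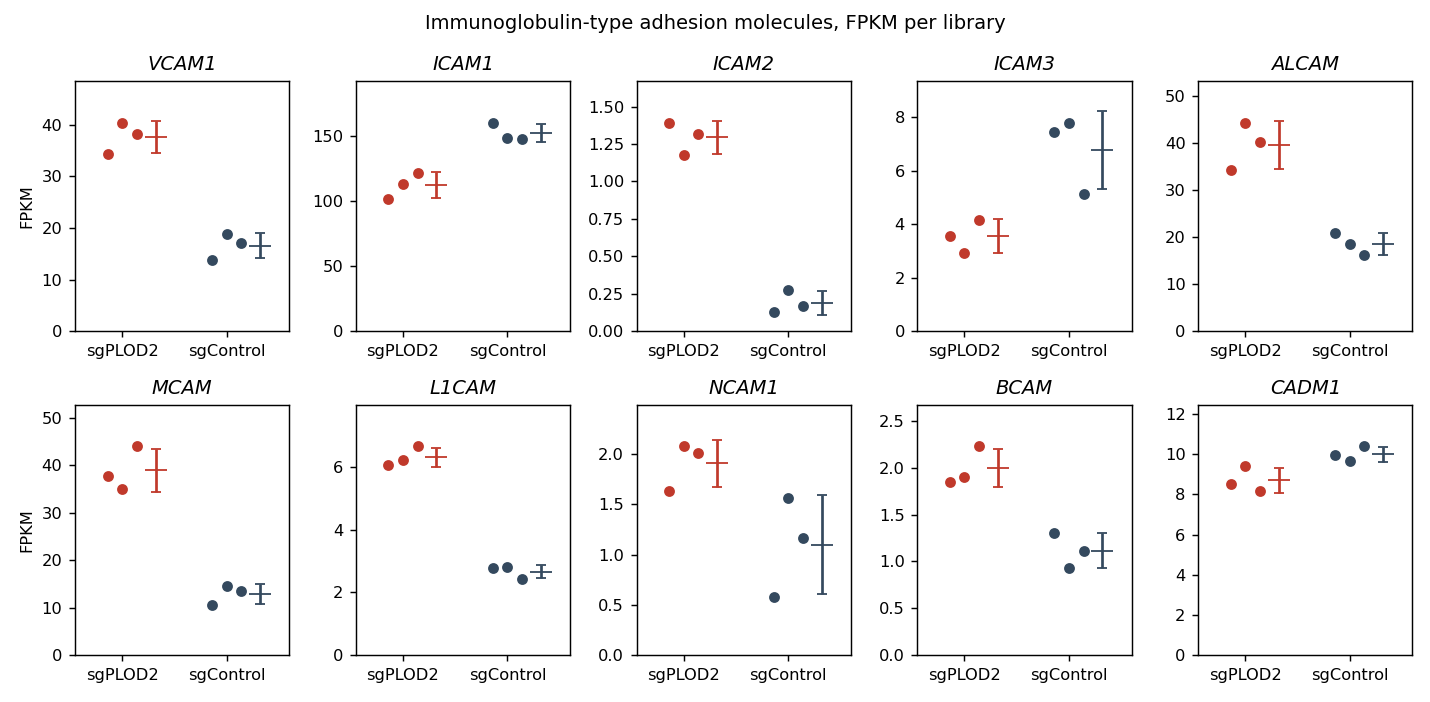
FPKM of each of the 10 members (vertical axis, from 0, scaled per gene) in the 3 sgPLOD2 libraries (red) and the 3 sgControl libraries (dark), with the mean and SD beside the points. VCAM1, ALCAM and MCAM lie near 40 FPKM in sgPLOD2, whereas ICAM1 and ICAM3 lie lower in sgPLOD2 than in sgControl.

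MCAM, first known from melanoma and present on endothelium and pericytes, rose most among the tested members. It had 37.7, 35.1 and 44.0 FPKM in sgPLOD2, against 10.6, 14.6 and 13.5 FPKM in sgControl. Every sgPLOD2 library held more than any sgControl library, and the means differed 3.02-fold. The log2 fold change was 1.53 ± 0.14 (SE; limma adjusted p = 0.000191). MCAM (ENSG00000076706; GRCh38, chromosome 11, 119308529 to 119321521, minus strand) overlaps CBL on the other strand by 5398 bases. CBL had 4.71, 5.96 and 1.29 FPKM in sgPLOD2 and 1.99, 2.75 and 0.301 FPKM in sgControl, and whether counting used strand is not given in the sources used here. The part of CBL in the values of MCAM was not tested.

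VCAM1, the docking site for the integrin of ITGA4 and ITGB1, was also higher in sgPLOD2. It had 34.4, 40.4 and 38.1 FPKM in sgPLOD2, against 13.9, 18.8 and 17.1 FPKM in sgControl. The lowest sgPLOD2 library was well above the highest sgControl library. On the log2 scale the difference was 1.14 ± 0.12 (SE; limma adjusted p = 0.000414). VCAM1 (ENSG00000162692) lies on chromosome 1, 100719742 to 100739045, plus strand.

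ICAM1, the cytokine-inducible ligand of the leukocyte integrins that share ITGB2, moved the other way. It was the most abundant member in every library, with 102, 113 and 121 FPKM in sgPLOD2, against 160.2, 148 and 148 FPKM in sgControl. All sgPLOD2 libraries lay below all sgControl libraries, though at a mean ratio of only 0.737. The log2 fold change was -0.44 ± 0.09 (SE; limma adjusted p = 0.00658). This call was lost with quantile normalization (log2 fold change -0.25, adjusted p = 0.0761) and with chromosome medians removed (-0.26, adjusted p = 0.0507), and the range over its 18 alternatives was 0.00492 to 0.0761. ICAM1 (ENSG00000090339) lies on chromosome 19, 10271093 to 10286615, plus strand. The antisense gene AC011511.2 overlaps it by 14274 bases and reached at most 1.46 FPKM.

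Because these 2 cytokine-inducible genes went apart, and because MCAM had the largest fold change of the 9 tested members, the 250 bases upstream of their RefSeq starts (GRCh38.p14) are shown, 5′ to 3′ on the strand of the gene. Promoter entries matched 7 of the 10 members; ICAM2, NCAM1 and CADM1 had none. Capitals mark, on either strand, the NF-kB type pattern GGNNNTTCC and the TATA box TATAAA in VCAM1 and ICAM1, the interferon response type pattern (GAAA, any 2 bases, GAAA) in VCAM1, the palindromic pattern TTCNNNGAA in ICAM1, and the cAMP response element TGACGTCA and the GC box GGGCGG in MCAM.
VCAM1 (chr1:100719492-100719741, plus strand): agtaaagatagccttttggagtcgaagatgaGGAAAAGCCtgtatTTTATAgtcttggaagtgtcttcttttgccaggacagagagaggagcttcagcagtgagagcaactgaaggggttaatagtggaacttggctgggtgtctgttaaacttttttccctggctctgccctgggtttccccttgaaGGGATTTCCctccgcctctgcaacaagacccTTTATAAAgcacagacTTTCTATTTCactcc
ICAM1 (chr19:10270870-10271119, plus strand): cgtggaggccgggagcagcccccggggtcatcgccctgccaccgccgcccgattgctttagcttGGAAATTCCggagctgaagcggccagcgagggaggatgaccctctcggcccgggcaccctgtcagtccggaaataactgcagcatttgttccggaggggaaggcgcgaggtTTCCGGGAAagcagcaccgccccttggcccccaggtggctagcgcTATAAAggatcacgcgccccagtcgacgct
MCAM (chr11:119317131-119317380, minus strand): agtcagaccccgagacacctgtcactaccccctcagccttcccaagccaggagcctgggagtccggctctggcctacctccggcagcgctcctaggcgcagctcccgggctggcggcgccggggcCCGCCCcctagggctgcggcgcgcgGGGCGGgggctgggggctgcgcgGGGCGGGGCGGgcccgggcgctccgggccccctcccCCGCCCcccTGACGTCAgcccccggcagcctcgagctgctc

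In VCAM1 the NF-kB type pattern began 219 and 62 bases upstream of the start, and in ICAM1 it began 186 bases upstream. Of 35116 promoter windows of this length in the table, 17.1% held it. The interferon response type pattern of VCAM1, 15 bases upstream, stood in 3.02% of windows, and the palindromic pattern of ICAM1, 75 bases upstream, in 6.57%. VCAM1 held the TATA box 205, 31 and 29 bases upstream, of which the last 2 overlap, and ICAM1 30 bases upstream. It was found in 10.7% of windows, and VCAM1 and ICAM1 were the only members with an entry that held it. MCAM held the cAMP response element 32 bases upstream, as 1.65% of windows do, and 5 GC boxes, of which those at 77 and 72 bases overlap. The RefSeq start of MCAM lies inside the span that the files give the gene. GC boxes occurred in 42.6% of windows and also upstream of ICAM1, ICAM3, ALCAM, L1CAM and BCAM. The windows were 46% G and C in VCAM1, 66% in ICAM1 and 79.6% in MCAM. A match of letters is a description only.

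The other ICAM genes had much lower levels and went apart as well. ICAM3, known from resting leukocytes, had 3.57, 2.93 and 4.18 FPKM in sgPLOD2, against 7.46, 7.80 and 5.12 FPKM in sgControl. The highest sgPLOD2 library came within about 1 FPKM of the lowest sgControl library. The log2 fold change was -0.76 ± 0.17 (SE; limma adjusted p = 0.00818), and the call was lost with the trend on GC content and transcript length removed (-0.46, adjusted p = 0.0614; range over its 18 alternatives 0.00381 to 0.0614). The antisense gene AC114271.1 overlaps ICAM3 by 2473 bases and had 1.61, 1.57 and 1.47 FPKM in sgPLOD2 and 1.91, 1.87 and 2.15 FPKM in sgControl. ICAM3 (ENSG00000076662) and ICAM1 are near neighbours on chromosome 19, with ICAM3 at 10333776 to 10339661 on the minus strand.

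ICAM2, best known from endothelium and platelets, had 1.39, 1.18 and 1.32 FPKM in sgPLOD2, against 0.125, 0.278 and 0.167 FPKM in sgControl. Its sgPLOD2 values were therefore several times higher, at a ratio of means of 6.82, but its mean of 0.743 FPKM kept it out of the planned test. Its difference on log2(FPKM + 1) was 0.95, a scale that understates changes at such levels. Fitted without the filter on low values, ICAM2 had an adjusted p of 0.00124 in limma. In the authors' deposited table its log2 fold change was 2.60 ± 0.30 (SE) at a mean normalized count of 326. ICAM2 (ENSG00000108622) lies on chromosome 17, 64002594 to 64020634, minus strand. ICAM4 and ICAM5, next to ICAM1, stayed below the filter, with 0.0790, 0.0748 and 0.136 FPKM of ICAM4 in sgPLOD2 and 0.291, 0.140 and 0.163 FPKM in sgControl. ICAM5 had 0.993, 0.889 and 1.06 FPKM in sgPLOD2 and 0.813, 0.635 and 0.650 FPKM in sgControl.

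ALCAM, which binds itself and the lymphocyte receptor CD6, rose to 34.2, 44.2 and 40.2 FPKM in sgPLOD2, against 20.9, 18.6 and 16.1 FPKM in sgControl. No library of either group reached into the other. The log2 fold change was 1.05 ± 0.13 (SE; limma adjusted p = 0.000715). ALCAM (ENSG00000170017) lies on chromosome 3, 105366909 to 105576900, plus strand. With the median of chromosome 3 removed its change was 0.72 (adjusted p = 0.00400).

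L1CAM, a neural adhesion molecule that binds itself and integrins, had 6.07, 6.21 and 6.65 FPKM in sgPLOD2, against 2.78, 2.79 and 2.41 FPKM in sgControl. Both groups were tight, with SDs of 0.303 FPKM in sgPLOD2 and 0.215 FPKM in sgControl (n = 3 each). Its log2 fold change was 1.00 ± 0.09 (SE; limma adjusted p = 0.000182). L1CAM (ENSG00000198910) lies on the X chromosome, 153861514 to 153886173, minus strand. BCAM, the Lutheran blood group protein and a receptor for the laminin chain of LAMA5, was low throughout. It had 1.85, 1.91 and 2.23 FPKM in sgPLOD2, against 1.30, 0.927 and 1.11 FPKM in sgControl. The groups stayed apart, and the log2 fold change was 0.51 ± 0.10 (SE; limma adjusted p = 0.00540). Its size ran between 0.33 with quantile normalization and 0.84 on the TPM scale (adjusted p over its 17 alternatives 0.000954 to 0.0396). BCAM (ENSG00000187244) lies on chromosome 19, 44809071 to 44821421, plus strand.

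NCAM1, which carries polysialic acid in development, had 1.64, 2.08 and 2.01 FPKM in sgPLOD2, against 0.575, 1.56 and 1.16 FPKM in sgControl. The sgControl libraries were spread widely, and the highest came close to the lowest sgPLOD2 library. The log2 difference was 0.50 ± 0.18 (SE; limma adjusted p = 0.0509), which just missed the threshold. Without sgControl replicate 2 its adjusted p was 0.0163, at a log2 difference of 0.65, and the range over its 17 alternatives was 0.0163 to 0.502. NCAM1 (ENSG00000149294) lies on chromosome 11, 112961247 to 113278436, plus strand.

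CADM1, known as a tumour suppressor of lung cancer, had 8.51, 9.42 and 8.19 FPKM in sgPLOD2, against 9.94, 9.66 and 10.4 FPKM in sgControl. These values lay close together without overlapping. The log2 difference was -0.18 ± 0.09 (SE; limma adjusted p = 0.115). It was called lower with median-of-ratios scaling (-0.24, adjusted p = 0.0465), with chromosome medians removed (-0.37, 0.0111) and after removal of the GC and length trend (-0.70, 0.000966), and the range over its 18 alternatives was 0.000966 to 0.600. CADM1 (ENSG00000182985) lies on chromosome 11, 115169218 to 115504957, minus strand.

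In the authors' deposited table, 6 members, ICAM2 among them, had an adjusted p under 0.05 on the higher side and ICAM1 and ICAM3 on the lower side. Of the 22870 genes given an adjusted p there, 18.5% were higher and 17% lower at that level. The authors' deposited table gave NCAM1 an adjusted p of 0.0612 and CADM1 an adjusted p of 0.0579. Its log2 fold changes for MCAM, VCAM1, ALCAM and L1CAM were 1.50, 1.09, 1.00 and 1.15, and for ICAM1 and ICAM3 -0.53 and -1.02. The sign of the change was the same there and on log2(FPKM + 1) for each of the 10 members and for 93.8% of all tested genes.

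**Figure D2:**
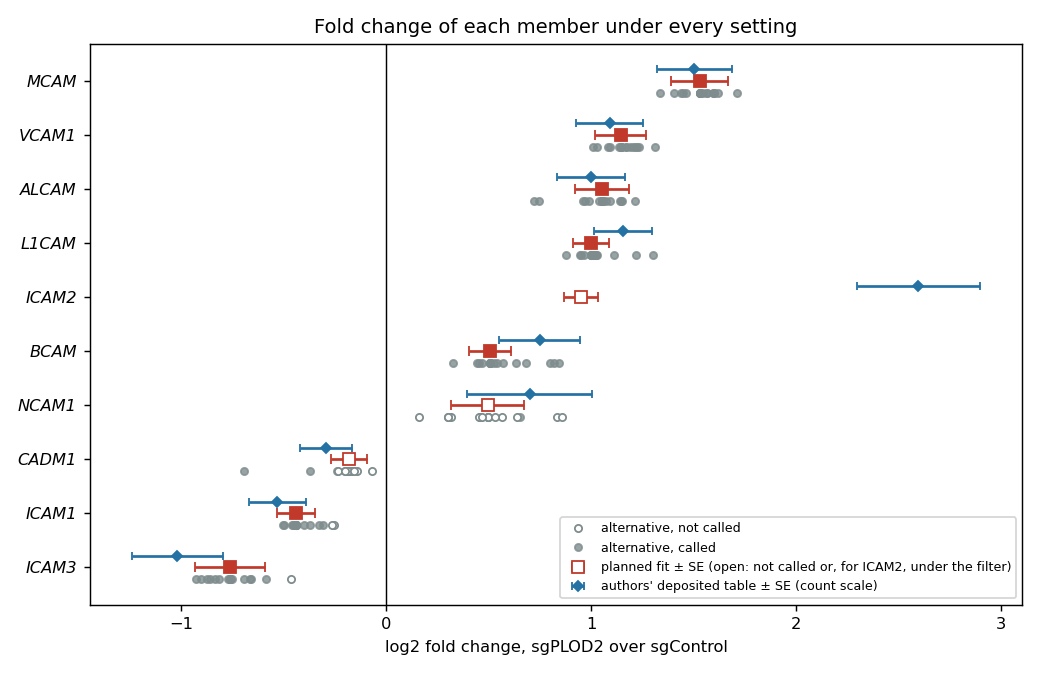
Log2 fold change of each member, sgPLOD2 over sgControl (horizontal axis). Red squares give the planned fit with its SE (open where not called). Grey dots give the alternatives (filled where called at an adjusted p under 0.05) and blue diamonds the authors' deposited table with its SE. ICAM2, which was not in the planned fit, has an open square with the SE of the fit without the filter, and no grey dots. VCAM1, ALCAM, MCAM, L1CAM and BCAM are called on the higher side in each alternative that tested them, while ICAM1, ICAM3, NCAM1 and CADM1 have filled and open dots.

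The order of levels within each group showed which members changed places. In sgPLOD2 it ran ICAM1, ALCAM, MCAM, VCAM1, CADM1, L1CAM, ICAM3, BCAM, NCAM1 and ICAM2. In sgControl it ran ICAM1, ALCAM, VCAM1, MCAM, CADM1, ICAM3, L1CAM, BCAM, NCAM1 and ICAM2. Levels of ALCAM, MCAM and VCAM1 overlapped with their neighbours among these 3 in both groups, as did those of BCAM and NCAM1. L1CAM and ICAM3 exchanged ranks without overlap in either group.

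ICAM1 made up 44.0%, 44.1% and 45.3% of the summed FPKM of the 10 members in sgPLOD2, against 70.3%, 66.4% and 68.8% in sgControl. VCAM1, ALCAM and MCAM together made up 46.0%, 46.6% and 45.6% in sgPLOD2, against 19.9%, 23.2% and 21.7% in sgControl. The sum itself was 231, 257 and 268 FPKM in sgPLOD2, against 228, 223 and 215 FPKM in sgControl, at means of 252 ± 19.1 and 222 ± 6.59 FPKM (SD, n = 3 each). The groups came close in the sum and lay far apart in both shares. The ratio of VCAM1 to ICAM1 within a library, which no scaling between libraries can alter, was 0.338, 0.357 and 0.314 in sgPLOD2, against 0.0867, 0.126 and 0.116 in sgControl. This pair was picked after its values had been seen, and the ratio shows unequal change of both genes, not which of them changed.

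To show how the surrounding genes behaved, each member was set beside the tested genes within 5 Mb of it. Over all tested genes 29.5% were called higher and 23.5% lower. L1CAM stood in a region of X where 42 of 59 neighbours were called lower and 1 higher. Their median log2 fold change was -0.71, against 1.00 for L1CAM, and 1 neighbour lay above it. VCAM1 lay above all 13 of its neighbours, which had a median of 0.08, and ALCAM above all 16 of its own, with a median of 0.07. Of the neighbours of VCAM1, 4 were called higher and 2 lower, and of those of ALCAM, 2 higher and 2 lower. MCAM lay above 45 of 46 neighbours, whose median was 0.32, and 22 of the 46 were called higher and 5 lower.

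CADM1 and NCAM1, in the same region of chromosome 11, stood differently. The neighbours of MCAM, CADM1 and NCAM1 overlapped, and CADM1 was itself among those of MCAM and NCAM1. CADM1, at -0.18, lay below 52 of 60 neighbours, which had a median of 0.35, and 28 of the 60 were called higher and 7 lower. NCAM1, at 0.50, lay below 16 and above 23 of its 39 neighbours, with a median of 0.32, and 19 of the 39 were called higher and 4 lower. On chromosome 19 ICAM1, at -0.44, lay below 114 of 153 neighbours, with a median of -0.19. Of the 153, 56 were called lower and 15 higher, beside 23.5% and 29.5% of all genes. ICAM3 lay below 134 of 153, largely the same genes as for ICAM1, so these comparisons are not separate. BCAM, on the other arm, lay above 134 of 147 neighbours with a median of -0.18, and 53 of the 147 were called lower and 18 higher. ICAM2 lay above 48 of 52 neighbours, with a median of 0.19, and 21 of the 52 were called higher and 9 lower. The part of these regional differences in the members' changes was not tested. The fits with chromosome medians removed take out the shift of a whole chromosome, which can differ from that of a region. The chromosome median was -0.008 on X, against -0.71 for the neighbours of L1CAM. On chromosome 3 it was 0.33, against 0.07 for the neighbours of ALCAM.

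**Figure D3:**
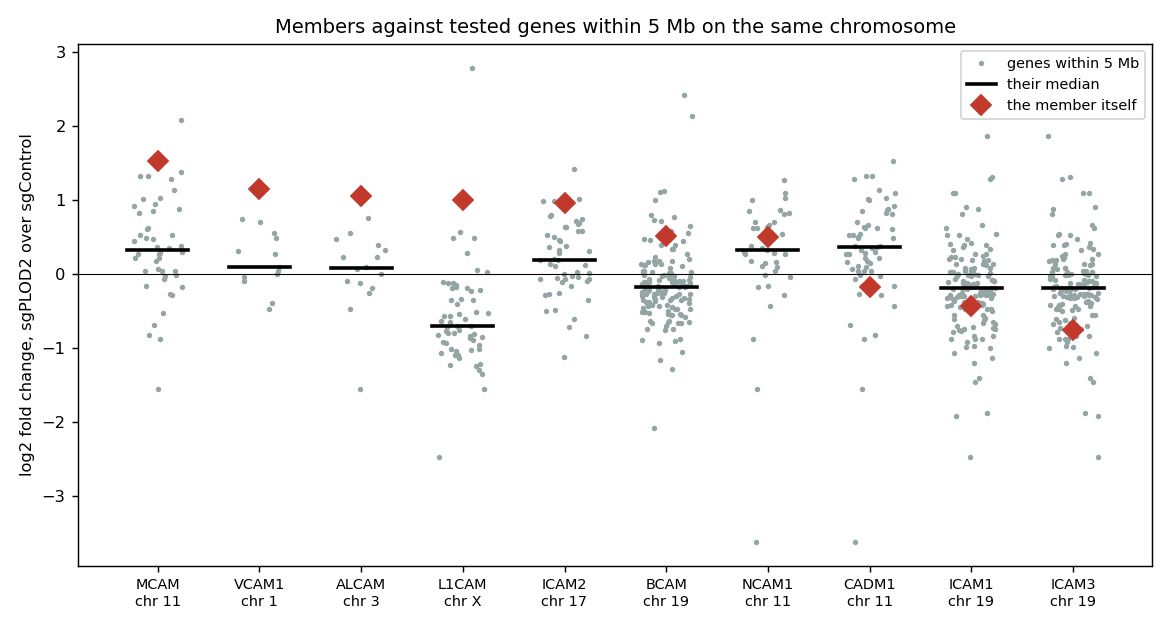
Log2 fold change, sgPLOD2 over sgControl (vertical axis), of each member (red diamond) and of the tested genes within 5 Mb of it (grey dots, black bar at their median). L1CAM stands at 1.00 over a median of -0.71, whereas CADM1 stands at -0.18 under a median of 0.35.

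Of the binding partners with enough signal for the test, all but FGFR1 were called higher, while ITGA4, ITGB2 and ITGAL lay below 1 FPKM. Of 19 listed partners 7 were tested, of which 6 were called higher and none lower in limma (also at an unadjusted p under 0.05), beside 29.5% and 23.5% of all genes, and the other 12 were below the filter. The integrin subunit ITGB3 had 40.5, 45.8 and 46.1 FPKM in sgPLOD2, against 3.39, 15.9 and 11.7 FPKM in sgControl, with a log2 fold change of 2.20 ± 0.45 (SE) and a limma adjusted p of 0.00594. Without sgControl replicate 1, the lowest library, it was 1.62 (adjusted p = 0.000310; range over its 18 alternatives 0.000310 to 0.0265). Its partner ITGAV, with which it forms a receptor that L1CAM binds, had 28.0 ± 4.41 FPKM in sgPLOD2 and 12.3 ± 2.55 FPKM in sgControl (SD, n = 3 each) and rose by 1.13 on the log2 scale. NRP1, a semaphorin receptor subunit that binds L1CAM, rose by 1.45, and ITGB1 and ITGA5 rose by 0.57 and 0.40. After removal of the GC and length trend, ITGAV was at 0.71 and ITGB1 at 0.33, both still called. WNT5A, a secreted ligand reported to bind MCAM, rose by 2.36, whereas FGFR1, which NCAM1 and L1CAM can engage, had a log2 difference of -0.14 and was not called. FGFR1 was called lower after removal of the GC and length trend (-0.44, adjusted p = 0.0208) and without sgControl replicate 1 (-0.26, adjusted p = 0.0378), and the range over its 18 alternatives was 0.0208 to 0.871.

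ITGA4, the subunit that recognises VCAM1, had 0.0762, 0.0953 and 0.0766 FPKM in sgPLOD2, against 0.175, 0.316 and 0.234 FPKM in sgControl. ITGB2, the shared subunit of the ICAM-binding integrins, had 0.540 ± 0.0387 FPKM in sgPLOD2 and 0.886 ± 0.0852 FPKM in sgControl (SD, n = 3 each). ITGAL, its partner for ICAM1, was listed at 0 in every library but sgControl replicate 1, with 0.00882 FPKM. ITGB1, the partner of ITGA4, was abundant by comparison, with 161 ± 14.9 FPKM in sgPLOD2 and 108 ± 5.01 FPKM in sgControl (SD, n = 3 each).

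Genes whose products link these proteins to the cytoskeleton or cut them were called higher or not called. Of 18 listed, 11 were tested, 8 were called higher and none lower in limma, beside 29.5% and 23.5% of all genes, and no tested gene of the list had a negative difference. MSN, the moesin that ties ICAM proteins to actin, had 368 ± 15.4 FPKM in sgPLOD2 and 134 ± 26.0 FPKM in sgControl (SD, n = 3 each) and rose by 1.47 on the log2 scale. ACTN1, an actin cross-linker, and the protease gene BACE1 rose by 1.11 and 1.02. ACTN1 was at 0.56 with chromosome medians removed and BACE1 at 0.67 after removal of the GC and length trend, both still called. ADAM10, which sheds L1CAM, rose by 0.79 with an adjusted p of 0.00198 in limma, a call lost with the GC and length trend removed (0.23, adjusted p = 0.176). The count of 8 was 5 with chromosome medians removed, 3 after removal of the GC and length trend, and 5 without sgPLOD2 replicate 2 or sgPLOD2 replicate 3. Over all genes 2397, 2238, 2307 and 2569 were called higher in these 4 fits, against 3084 in the planned one.

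Genes of the pathways that induce VCAM1 and ICAM1, the NF-kB inhibitor gene NFKBIA among them, are called inducers here and went both ways. Of 20 listed, 16 were tested, 2 were called higher and 7 lower, beside 29.5% and 23.5% of all genes. The count of 7 was 5 on the TPM scale and 5 with the replicate block. Over all genes 1827 and 2335 were called lower in these fits, against 2456 in the planned one. NFKB2 and RELB, of the noncanonical NF-kB pathway, fell by 0.80 and 0.52 on the log2 scale. RELB was at -0.34 with chromosome medians removed and was not called with the GC and length trend removed (-0.02, adjusted p = 0.844). IKBKG fell by 1.24, but it has a near-identical pseudogene whose reads could have been split from it. It is also among the 59 neighbours of L1CAM on X, of which 42 were called lower. The part of the pseudogene or of the region in its change was not tested. RELA, the main NF-kB activating subunit, had a log2 difference of 0.45 and an adjusted p of 0.0355 in limma, and it was not called in 8 of 18 alternatives, among them the removal of sgPLOD2 replicate 1, 2 or 3 or of sgControl replicate 2 or 3 (adjusted p = 0.0593 to 0.110). JAK1 rose by 0.57, a call lost with the GC and length trend removed (0.27, adjusted p = 0.0695).

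Other adhesion molecules with immunoglobulin domains were called higher and lower in equal number. Of 31 listed, 11 were tested, 2 were called higher and 2 lower, beside 29.5% and 23.5% of all genes, so neither count stands above the background. The median of the 11 was -0.11. NECTIN1, an adherens junction protein, had 10.3 ± 0.968 FPKM in sgPLOD2 and 3.52 ± 0.208 FPKM in sgControl (SD, n = 3 each) and rose by 1.32. Its relative NECTIN2 fell by 0.54 and IGSF8, a tetraspanin partner, by 0.73. After removal of the GC and length trend they were at -0.30 and -0.34, both still called. NECTIN3 had a log2 difference of 0.42 and an adjusted p of 0.0187 in limma, and it was not called with chromosome medians removed (0.09, adjusted p = 0.541), after removal of the GC and length trend (0.21, 0.175), with quantile normalization (0.27, 0.0680) or without sgPLOD2 replicate 2, sgPLOD2 replicate 3 or sgControl replicate 3 (0.0601 to 0.0664). Below the filter, JAM2 and ESAM, both endothelial junction proteins and both noticed after their values were seen, differed in opposite directions. JAM2 had 1.19, 1.29 and 1.15 FPKM in sgPLOD2, against 0.0824, 0.0549 and 0.114 FPKM in sgControl. ESAM had 0.103, 0.0242 and 0.0137 FPKM in sgPLOD2, against 0.665, 0.499 and 0.524 FPKM in sgControl.

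**Figure D4:**
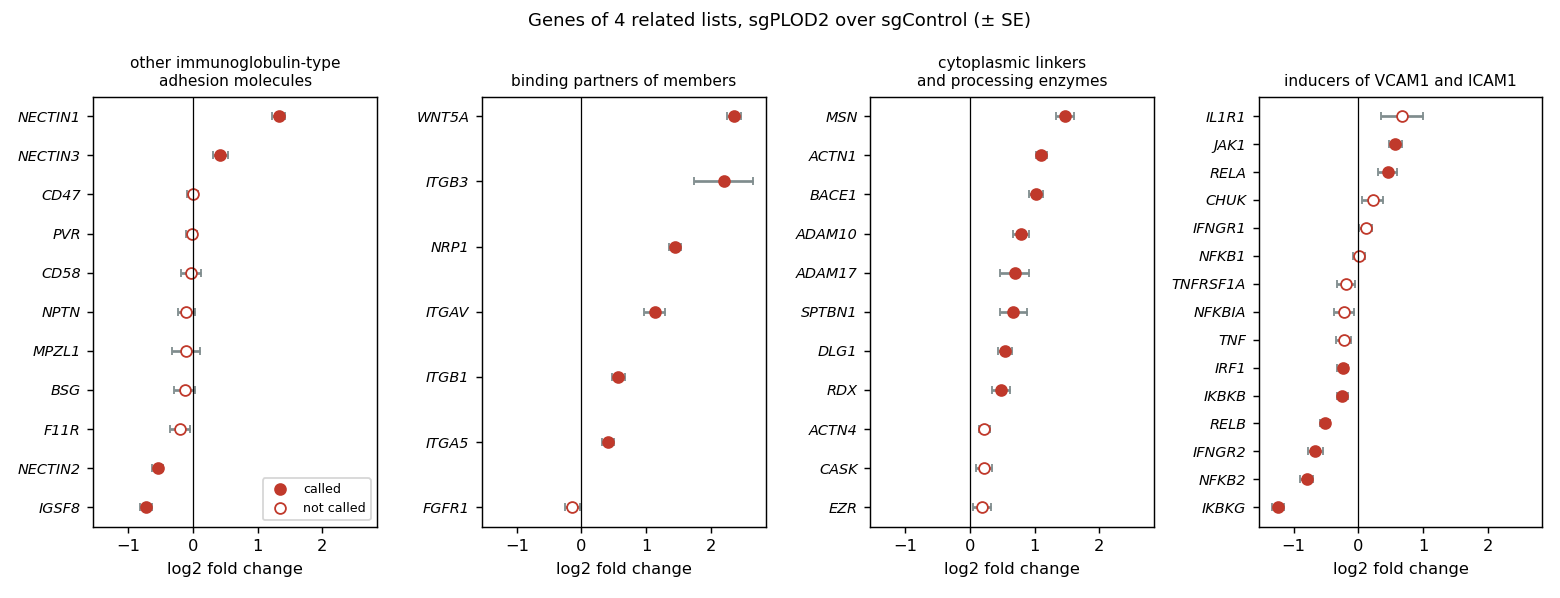
Log2 fold change with SE (horizontal axis), sgPLOD2 over sgControl, of tested genes of 4 related lists, filled where called; 1 tested inducer is not drawn. Partners and linkers lie on the higher side with FGFR1 as the exception, and inducers and other adhesion molecules lie on both sides.

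The genes whose values across the 6 libraries lay nearest to those of MCAM, by Euclidean distance of centred log2(FPKM + 1) among the tested genes, were EPHB2, PRICKLE2, WLS, MSN and SORCS2. Their distances were 0.183 to 0.240 on that scale. EPHB2, an ephrin receptor, had 10.6, 10.5 and 11.4 FPKM in sgPLOD2, against 2.26, 3.28 and 3.20 FPKM in sgControl. WLS, which carries WNT proteins out of the cell, had 6.66, 6.88 and 7.09 FPKM in sgPLOD2, against 1.43, 1.93 and 1.88 FPKM in sgControl. Their log2 fold changes were 1.41 to 1.61, close to that of MCAM because they were chosen for likeness to it over the same libraries.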

How the data were processed

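Gene expression was measured by RNA-seq in 3 sgPLOD2 and 3 sgControl libraries. The authors deposited 1 FPKM value per gene and library, per the file headers, with no scaling between libraries recorded. The submitters' processing notes list CASAVA, HISAT2 2.1.0, StringTie 1.3.4 and the build GRCh38 with no roles. Counter, strand setting and gene annotation: not given in the sources used here. The deposited table also held the authors' own comparison, per the file headers: p-values, a log2 fold change and its SE, a test statistic (a score) and a mean normalized count (a signal value).

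Samples were grouped by title. limma 3.58.1 (R 4.3.3, eBayes with an intensity trend) was run on log2(FPKM + 1). Chromosomes and strands came from GENCODE release 29, also on GRCh38, which held 58275 identifiers, and promoter sequences from RefSeq. The fit was also run on simulated data in which few genes changed and no library was shifted. That run cannot show how the fit behaves with calls as common as here. Alternatives were TPM, other pseudocounts (0.1, 0.5), a stricter filter (5 FPKM) or none, median-of-ratios scaling, quantile normalization, other variance models, a replicate block, removal of chromosome medians or of a trend on GC content and length (mgcv 1.9.3), and leaving out each library. Named genes were the members, PLOD2, up to 4 genes per list and direction by adjusted p, direct partners or genomic neighbours of members, and the 5 genes nearest to MCAM. HIF1A, JAM2 and ESAM were named after their values were seen. Members, lists and tests were chosen with earlier results of these data known. Of the genes this rule names, 1 inducer is not reported here.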

Additional observations from a re-analysis of the deposited data

How the results depend on the processing

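VCAM1, ALCAM, MCAM, L1CAM and BCAM kept their direction and call in each alternative that tested them (17 or 18 each). None of the named genes followed through the alternatives reversed in any, and other tested genes were not checked for reversal. ICAM2, ICAM4, ICAM5, JAM2, ESAM, ITGA4, ITGB2, ITGAL and CBL were not among the genes followed, apart from ICAM2 with no filter. Under a minimum of 5 FPKM, 3 members were called higher, because only 6 of 9 were tested, and 1361 of 5689 genes, and 1 other adhesion molecule. With quantile normalization 1 member was called lower and 1 other adhesion molecule higher. With no filter, 4 other adhesion molecules and 10 partners were called higher, and 2 partners and 1 linker lower. With median-of-ratios scaling 1 inducer was called higher. With chromosome medians removed the calls on the higher side were 1 other adhesion molecule, 5 linkers and 1 inducer. With the GC and length trend removed they were 1, 3 and 1, with 4 other adhesion molecules and 1 partner called lower. Without 1 library, the count called higher ranged between 5 and 6 for members, 1 and 2 for other adhesion molecules, 5 and 9 for linkers, and 1 and 2 for inducers, and was 6 throughout for partners. Partners called lower ranged between 0 and 1, and 2 members were called lower throughout.

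On the TPM scale the median log2 fold change of all genes was 0.20, against 0.06 on FPKM. Not corrected for that shift, TPM gave MCAM 1.71, VCAM1 1.31, ICAM1 -0.31 and CADM1 -0.07.

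Whether the replicate numbers pair the libraries is not given in the labels. Same-numbered libraries of both groups had correlations of 0.0135, 0.135 and -0.0491 between their deviations, and not every library matched its own number best. With 3 libraries per group these correlations cannot decide whether libraries were handled in pairs. With the replicate block 2984 genes were called higher and 2335 lower, and among the members NCAM1 alone changed side (adjusted p = 0.0241). NCAM1 was also called with robust estimation (0.0485). Depth per library is unknown; for the members at low FPKM, the authors' deposited table gives mean normalized counts of 326 for ICAM2, 2596 for NCAM1 and 1056 for BCAM.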
